A study of Mus musculus with 44 samples.

Results

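The insulin-like growth factor (IGF) system was followed through its 10 genes Igf1, Igf2, Igf1r, Igf2r and Igfbp2 to Igfbp7 in sorted mouse mammary fibroblasts. Members were the rows of the gene count table that carried these symbols, 10 of 55486 genes. IGF-I and IGF-II are secreted growth factors that signal through the receptor tyrosine kinase encoded by Igf1r. The receptor encoded by Igf2r takes up IGF-II and removes it. IGF binding proteins are secreted proteins that hold IGFs outside the cell, prolong their life or keep them from the receptor, and several of them also act on cells by themselves. In the mammary gland the stroma is a known local source of IGF-I for the epithelium.

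The recipients were female EN1-Cre;mTmG mice on an FVB/n-based background, in which cells that have expressed En1 and their descendants carry GFP and all other cells tdTomato, and the age of the mice was not in the labels. The gland of the control mice received non-neoplastic tissue, from donors without WapCre according to the study's methods. WB1P tissue (WapCre;Brca1F/F;Trp53F/F) models BRCA1-deficient triple-negative breast cancer, and WB1P-Myc tissue also carries Col1a1-invCAG-Myc-IRES-Luc, which overexpresses Myc. Wap drives Cre in the mammary epithelium of the donor. The recipients' own fat pads were left in place, so the glands of all 3 groups held recipient fibroblasts and epithelium beside the graft. Fibroblasts lacked EpCAM, CD49f, CD31 and CD45, and were sorted by GFP and by CD26, the dipeptidyl peptidase encoded by Dpp4. Those of control mice are called normal fibroblasts (NFs) and those of tumors cancer-associated fibroblasts (CAFs). There were 44 libraries of 13 mice, 12 from 3 control mice, 16 from 5 WB1P mice and 16 from 5 WB1P-Myc mice. The labels of each control mouse hold a pair of numbers, which may mark pooled animals and were counted as 1 mouse. WB1P-Myc replicates 12 and 13 are marked 8x8 in the labels, a tumor size in mm that the study's methods class as advanced, before end stage.

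Counts of the GFP+ and GFP- libraries of a mouse were added within each CD26 class, which gave 25 sums of 5790599 to 29498005 counts. There were 3 NF sums of each class, 10 CD26- CAF sums and 9 CD26+ CAF sums. Levels are given as CPM, the gene's counts as a share of all counts of the sum, scaled as is usual for libraries of unequal depth. The CD26+ sum of WB1P replicate 6 is the shallowest and rests on 1 library. Dpp4 lay between 0.619 and 17.6 CPM in the CD26- sums and between 223 and 846 CPM in the CD26+ sums, so the sort and the labels went the same way in every mouse. Summed levels of 6 fibroblast markers were 20769 to 52587 CPM in all 25 sums. Epithelial, immune, endothelial, Schwann and adipocyte marker lists reached at most 233 CPM in sum. The 8 pericyte and smooth muscle markers (Rgs5, Cspg4, Mcam, Notch3, Kcnj8, Abcc9, Myh11 and Des) did differ between the groups. CD26- NFs summed to 225 to 449 CPM of them and CD26+ NFs to 168 to 204 CPM. In CD26- CAFs the sum was 1901 to 10973 CPM with a median of 3179 CPM, and in CD26+ CAFs 146 to 327 CPM, and none of the 8 was at 0 in any group. In sorted bulk populations, fewer cells of a type and less RNA per cell cannot be told apart.

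**Figure D1:**
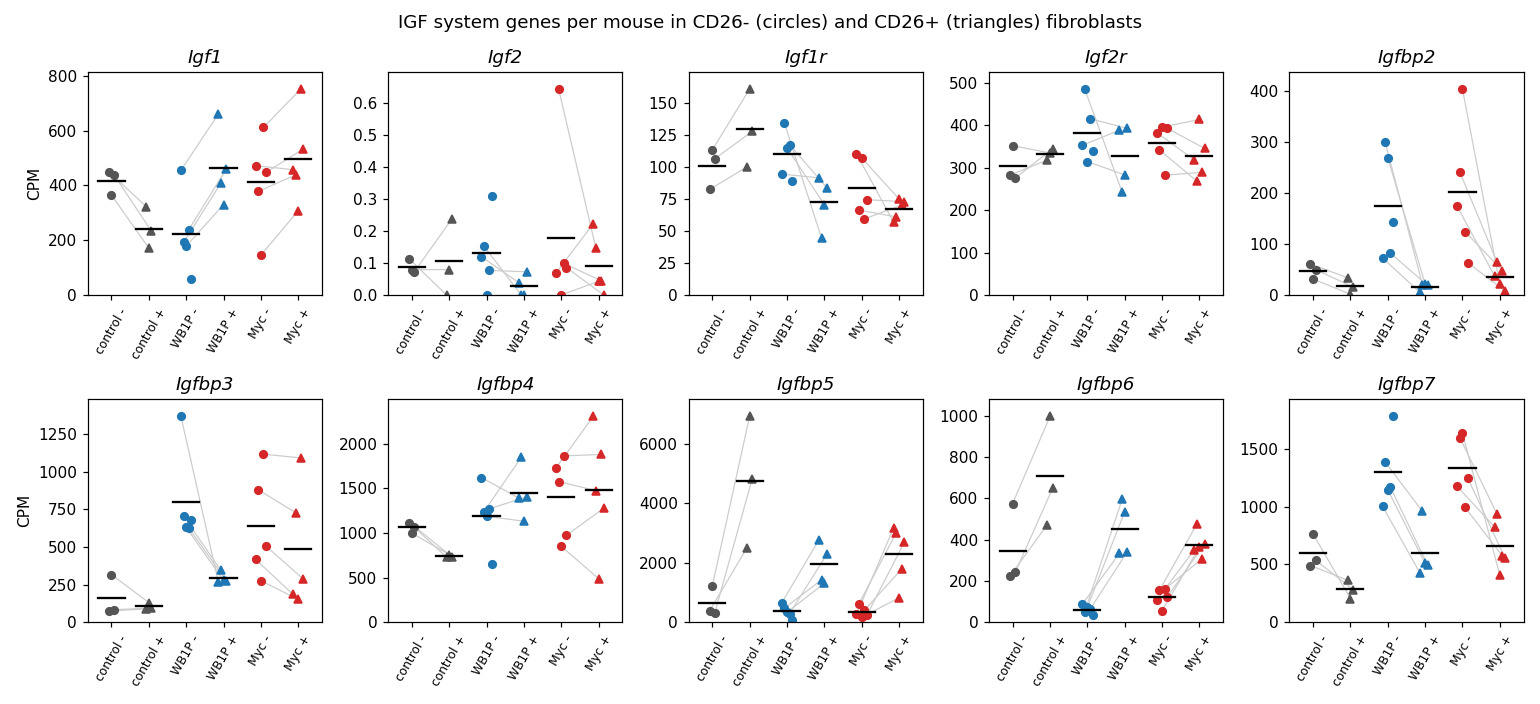
CPM of the 10 genes in each mouse, by transplanted tissue (control, WB1P or WB1P-Myc, shortened to Myc) and CD26 class. Circles are CD26- and triangles CD26+ sums, a grey line joins the sums of 1 mouse and a black bar is the group mean. Igfbp5 and Igfbp6 lie higher in the CD26+ sums and Igfbp2 and Igfbp7 in the CD26- sums of each mouse that has both.

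The first comparison asked how the CAFs of each CD26 class differ from the NFs of the same class. In CD26- fibroblasts, 4 of the 9 members that passed the filter on low counts were called at an adjusted p under 0.05 (quasi-likelihood test of edgeR, with p-values adjusted by Benjamini and Hochberg over 16601 genes). Igfbp2, Igfbp3 and Igfbp7 were higher in CAFs and Igfbp6 was lower. The same call was made for 41.3% of all genes tested, 20.4% higher and 21.0% lower, so the number of members called was near that of genes at large. In CD26+ fibroblasts, Igfbp3, Igfbp4 and Igfbp7 were higher in CAFs and Igf1r was lower, again 4 of 9 members, against 41.2% of all genes (20.1% higher and 21.1% lower). The median log2 fold change of the 9 members was 0.35 in the CD26- class and 0.56 in the CD26+ class, against 0.0137 and -0.00247 for all genes tested. Igf2 did not pass the filter.

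The second comparison set CD26+ against CD26- fibroblasts of the same kind. Among CAFs, Igfbp5, Igfbp6 and Igf1 were higher in the CD26+ class and Igfbp2 and Igfbp7 were lower, 5 of 9 members against 39.0% of all genes (19.1% higher and 19.9% lower). Igfbp2, Igfbp5 and Igfbp6 also passed the study's limit of an absolute log2 fold change over 2, which 7.61% of all genes did. Among NFs, Igfbp5 was the member called, 1 of 9 against 4.17% of all genes, and its call was lost without control replicate 1 or 3. With the mouse as a block, 4 members were called in NFs (Igf1 and Igfbp7 lower, Igfbp5 and Igfbp6 higher in the CD26+ class) and 6 in CAFs, with Igfbp3 added as lower, against 11.5% and 49.4% of all genes.

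**Figure D2:**
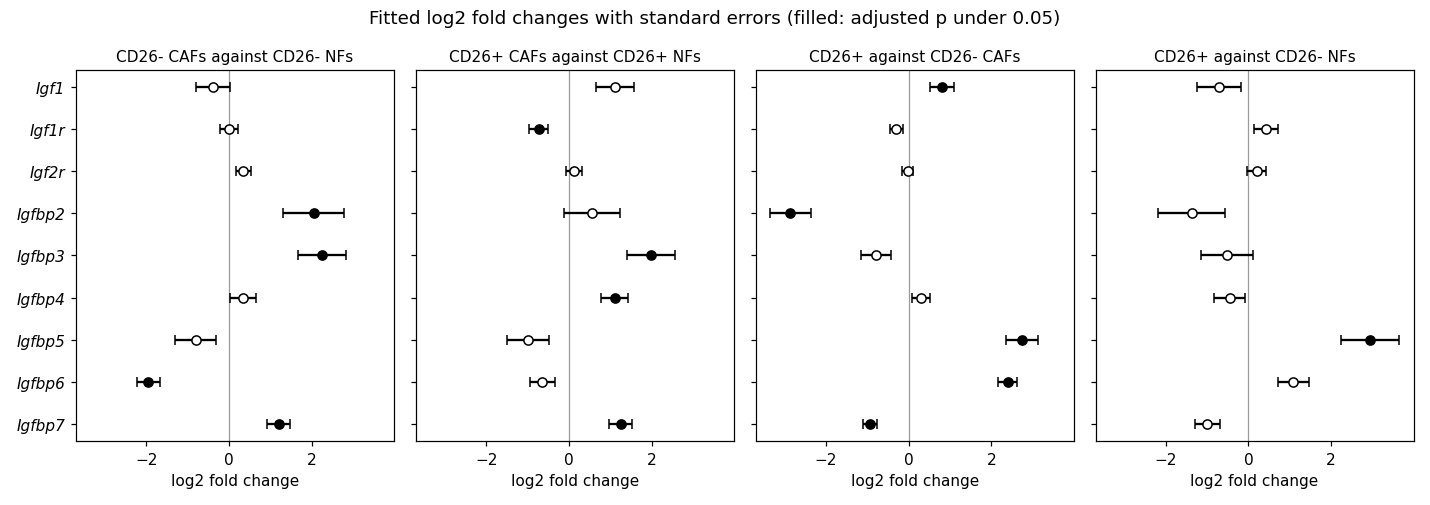
Log2 fold change of the 9 members tested in 4 comparisons, with bars of 1 standard error. Filled points passed an adjusted p of 0.05 in edgeR's quasi-likelihood test and open points did not. The Igfbp5 point lies near 3 in both CD26 comparisons, and Igfbp3 and Igfbp7 lie above 0 in both CAF comparisons.

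Igf1 was the expressed ligand of these cells. In CD26- NFs its level was 450.0, 364.5 and 438 CPM in control replicates 1, 2 and 3, and in CD26+ NFs 323, 171 and 233 CPM. Every CD26+ NF value lay below every CD26- value. CD26- CAFs ranged from 57.1 to 612 CPM around a median of 308 CPM, with WB1P replicate 4 lowest, and CD26+ CAFs from 307 to 752 CPM around 457 CPM. Igf1 was lower in the CD26+ class in 3 of 3 control mice (log2 ratios of -1.09 to -0.48) and higher in 8 of 9 tumor mice (-0.05 to 1.09).

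In the fit without the mouse, Igf1 was 1.76-fold higher in CD26+ than in CD26- CAFs (log2 fold change 0.81, SE 0.30, adjusted p 0.0334). That call was lost without the mice marked 8x8, and when WB1P replicate 6 or 8 was left out, or replicate 9 or 11 of WB1P-Myc, with adjusted p of up to 0.0758. With the mouse as a block the log2 fold change was 0.75 (SE 0.11, adjusted p 0.000116). In NFs the log2 fold change was -0.71 (SE 0.53, adjusted p 0.674) and, with the block, -0.76 (adjusted p 0.0225). CD26+ CAFs against CD26+ NFs gave 1.13 for Igf1 (SE 0.46, adjusted p 0.0534), which 5 of 18 alternative settings put past the threshold. CD26- CAFs against CD26- NFs gave -0.39 (SE 0.41, adjusted p 0.464).

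A test of the difference itself asked whether the NF-to-CAF change differed between the CD26 classes. No member passed it in edgeR without the mouse or in DESeq2, 3 of 9 had an unadjusted p under 0.05, and 2.11% of all genes were called. The difference for Igf1 was 1.52 on the log2 scale (SE 0.61, adjusted p 0.241). With the mouse as a block it was 1.51 with a smaller error (SE 0.23, adjusted p 0.00204), and Igf1 was then 1 of 9 members called, against 6.08% of all genes.

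Igf2, which encodes the fetal growth factor IGF-II, was at the edge of detection. Its counts ran from 0 to 8 a sum, and 6 of 25 sums had 0, which allows up to 0.106 to 0.518 CPM by depth. The highest level was 0.643 CPM in the CD26- sum of WB1P-Myc replicate 11. No difference between groups could be measured for Igf2 at this depth.

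Of the receptor genes, Igf1r was called in CD26+ CAFs against CD26+ NFs and Igf2r was called in no comparison. Igf1r was at 100.2, 161 and 128 CPM in the CD26+ NFs of replicates 1 to 3 and at 44.2 to 91.6 CPM in CD26+ CAFs around a median of 70.7 CPM. These ranges did not overlap, and the log2 fold change was -0.73 (SE 0.22, adjusted p 0.0119). The call was lost without control replicate 2, the highest NF (adjusted p 0.116). In CD26- fibroblasts Igf1r was at 82.5, 113 and 107 CPM in NFs and at 59.5 to 135 CPM in CAFs around 101 CPM, with a log2 fold change of -0.000813 (SE 0.23). The difference between those changes was -0.73 (SE 0.32, adjusted p 0.313), so a difference between the classes was not established. Within mice, Igf1r was lower in the CD26+ class in 8 of 9 tumor mice and higher in 3 of 3 control mice.

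Igf2r, which encodes the cation-independent mannose-6-phosphate receptor, varied least of the members with a level above 10 CPM. NFs held 275.5 to 352 CPM in the CD26- class and 318 to 345 CPM in the CD26+ class, and CAFs 282 to 485 CPM and 243 to 414 CPM. The ranges overlapped in every comparison. Its largest fitted log2 fold change in the 4 comparisons was 0.35 (SE 0.19, adjusted p 0.142), in CD26- CAFs against CD26- NFs.

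The binding proteins carried most of the differences. Igfbp2 and Igfbp5 lie tail to tail on chromosome 1, with 5457 bases between the annotated ends of the genes, and went opposite ways between the CD26 classes. Igfbp5 and Igfbp6 were higher in the CD26+ class, and Igfbp2 and Igfbp7 in the CD26- class. These 4 genes are the members whose CD26 difference had the same sign in every mouse with both classes. The 250 bases before their RefSeq start (GRCm38.p6) are shown for that reason, each 5′ to 3′ on the strand of its gene. Igf1, and with the mouse as a block Igfbp3, were also called between the CAF classes, and their windows are not shown.
Igfbp5, chr1:72874866-72875115, minus strand: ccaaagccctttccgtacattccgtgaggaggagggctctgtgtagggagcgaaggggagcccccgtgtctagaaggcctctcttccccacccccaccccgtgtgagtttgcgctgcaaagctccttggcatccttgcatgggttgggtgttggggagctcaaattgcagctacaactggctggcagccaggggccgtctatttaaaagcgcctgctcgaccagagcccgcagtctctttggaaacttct
Igfbp6, chr15:102143936-102144185, plus strand: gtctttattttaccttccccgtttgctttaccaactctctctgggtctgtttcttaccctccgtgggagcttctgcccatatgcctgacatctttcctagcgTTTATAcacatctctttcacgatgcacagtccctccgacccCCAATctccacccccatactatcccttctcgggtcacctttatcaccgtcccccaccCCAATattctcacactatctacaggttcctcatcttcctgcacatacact
Igfbp2, chr1:72824230-72824479, plus strand, the first of 2 entries: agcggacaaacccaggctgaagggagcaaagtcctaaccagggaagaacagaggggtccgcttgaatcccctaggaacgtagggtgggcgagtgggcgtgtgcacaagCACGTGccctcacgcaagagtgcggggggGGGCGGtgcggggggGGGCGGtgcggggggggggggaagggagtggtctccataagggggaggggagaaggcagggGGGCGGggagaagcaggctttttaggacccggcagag
Igfbp7, chr5:77408046-77408295, minus strand: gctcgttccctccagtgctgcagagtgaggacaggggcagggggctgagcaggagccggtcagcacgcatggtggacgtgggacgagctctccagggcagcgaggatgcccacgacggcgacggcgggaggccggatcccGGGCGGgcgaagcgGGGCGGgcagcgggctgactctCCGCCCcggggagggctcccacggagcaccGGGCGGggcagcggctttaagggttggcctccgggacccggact
Capitals mark matches on either strand to the TATA-box letters TATAAA, to CCAAT, which the factor NF-Y reads, to the GC-box letters GGGCGG, to the AP-1 letters TGANTCA or to the E-box letters CACGTG. Over 32851 windows of the same length, 12.4% held TATAAA, 33.8% CCAAT, 32.7% GGGCGG, 6.75% TGANTCA and 6.02% CACGTG. The windows of the pair that was higher in the CD26- class held GGGCGG 3 times (Igfbp2) and 4 times (Igfbp7), and that of Igfbp2 also held CACGTG. The Igfbp6 window held CCAAT 2 times and TATAAA once, and the Igfbp5 window held none of these letters. G and C made up 67.2% of the Igfbp2 window shown, 74.0% of the Igfbp7 window, 58.8% of the Igfbp5 window and 49.6% of the Igfbp6 window. The second Igfbp2 entry, not shown, held TGANTCA but neither GGGCGG nor CACGTG, and G and C made up 56.4% of it. GGGCGG also stood 2 times in the Igf1r window and 3 times in the Igf2r window, genes not called between the CD26 classes. The window of Igfbp3, lower in CD26+ CAFs with the block, held none of these letters. That of Igf1, higher in CD26+ CAFs, held CCAAT and TGANTCA but not GGGCGG. The matches describe letters and show no binding.

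Igfbp5, which encodes a binding protein that attaches to extracellular matrix, separated the classes most widely on the side of CD26+ fibroblasts. Control replicates 1, 2 and 3 held 388, 1215 and 322 CPM in CD26- NFs and 2503, 6924 and 4826.5 CPM in CD26+ NFs. CD26- CAFs ranged from 62.1 to 649 CPM around 315 CPM and CD26+ CAFs from 822 to 3179 CPM around 2289 CPM. The classes did not overlap in NFs or in CAFs, and the CD26+ value was the higher in each of the 12 mice with both. Igfbp5 was 6.73-fold higher in CD26+ than in CD26- CAFs (log2 fold change 2.75, SE 0.39, adjusted p 6.49e-06) and 7.68-fold higher in NFs (2.94, SE 0.70, adjusted p 0.0162). Without control replicate 1 or 3 the adjusted p in NFs reached 0.205, and with the mouse as a block it was 0.000216. Against NFs, CAFs gave a log2 fold change of -0.81 (SE 0.50, adjusted p 0.203) in the CD26- class and -0.998 (SE 0.51, adjusted p 0.119) in the CD26+ class. Both tests missed the threshold, and control replicate 2 was the highest NF of either class.

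Igfbp6, whose product prefers IGF-II, was also higher in CD26+ fibroblasts. CD26- NFs held 223, 574 and 242 CPM and CD26+ NFs 473, 996 and 648 CPM in replicates 1 to 3, and these ranges overlapped. CD26- CAFs held 35.8 to 160.0 CPM around 79.6 CPM, below every CD26- NF, and CD26+ CAFs 307 to 594 CPM around 363 CPM. Igfbp6 fell by 1.95 on the log2 scale from CD26- NFs to CD26- CAFs (SE 0.28, adjusted p 1.18e-05), which is 3.86-fold lower. In the CD26+ class the change was -0.64 (SE 0.30, adjusted p 0.0890). The difference between these changes was 1.31 (SE 0.44, adjusted p 0.138), and 1.18 with the mouse as a block (SE 0.33, adjusted p 0.0540). Among CAFs the CD26+ class was 5.25-fold higher (log2 fold change 2.39, SE 0.22, adjusted p 2.15e-08), with the CD26+ value higher in 9 of 9 mice. In NFs the log2 fold change was 1.085 (SE 0.38, adjusted p 0.135) and with the block the call was made (1.17, adjusted p 0.0190), with 3 of 3 mice higher.

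Igfbp2 gave the widest split on the side of CD26- CAFs. Its CD26- NF levels were 60.8, 31.2 and 49.8 CPM and its CD26+ NF levels 33.6, 1.63 and 15.7 CPM in replicates 1 to 3. CD26- CAFs ranged from 63.3 to 404 CPM around 159 CPM, above all CD26- NFs, and CD26+ CAFs from 5.24 to 64.0 CPM around 21.5 CPM. Each of the 12 mice had the lower value in its CD26+ class. Igfbp2 was 7.25-fold lower in CD26+ than in CD26- CAFs (log2 fold change -2.86, SE 0.49, adjusted p 7.16e-05). Against CD26- NFs it was 4.13-fold higher in the CAFs of that class (2.05, SE 0.73, adjusted p 0.0290), a call that was lost without the mice marked 8x8 and without control replicate 2 or 3, with adjusted p of up to 0.0956. The CD26+ class gave 0.56 (SE 0.68, adjusted p 0.526).

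Igfbp7, a member that binds IGFs weakly and is found in vessel walls and matrix, rose in CAFs of both classes. CD26- NFs held 491, 765 and 537 CPM and CD26- CAFs 993 to 1782 CPM around 1212 CPM. CD26+ NFs held 363, 205 and 283 CPM and CD26+ CAFs 408 to 959 CPM around 556 CPM. CAF and NF ranges did not overlap in either class, and CD26+ and CD26- ranges did not overlap in NFs or in CAFs. Igfbp7 rose 2.29-fold in CD26- CAFs (log2 fold change 1.20, SE 0.27, adjusted p 0.00126) and 2.38-fold in CD26+ CAFs (1.25, SE 0.27, adjusted p 0.00114) over the NFs of the class. It was 1.91-fold lower in CD26+ than in CD26- CAFs (-0.94, SE 0.18, adjusted p 0.000205) and lower in the CD26+ class of 9 of 9 tumor mice and 3 of 3 control mice. In NFs the log2 fold change was -0.99 (SE 0.31, adjusted p 0.0793), and the call was made with the mouse as a block (-1.02, adjusted p 0.0402) and by DESeq2.

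Against CD26- NFs, the CD26- CAFs as a group were higher in the summed pericyte markers, Igfbp2, Igfbp3 and Igfbp7 and lower in Igfbp6. The part of the markers in these results was not tested. Among the CD26- CAF sums, WB1P replicate 5 had the highest Igfbp3 (1367 CPM) and the lowest marker sum (1901 CPM). WB1P-Myc replicate 12 had the lowest Igfbp3 (276 CPM) at a marker sum of 4422 CPM. The sum highest in pericyte markers, WB1P-Myc replicate 9 at 10973 CPM, had the lowest Igfbp2 of the CD26- CAFs (63.3 CPM) and an Igfbp7 of 1249 CPM, near the median. WB1P replicate 4, at 5430 CPM of pericyte markers, had the highest Igfbp7 (1782 CPM) and the lowest Igfbp5 and Igfbp6. In CD26+ CAFs, where the markers stayed at 146 to 327 CPM, Igfbp7 was also higher than in NFs, as given above.

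Igfbp3, which encodes the main IGF carrier of the circulation, was higher in CAFs of both classes. CD26- NFs held 74.3, 317 and 83.3 CPM in replicates 1 to 3 and CD26- CAFs 276 to 1367 CPM around 655 CPM, so only control replicate 2 reached the CAF range. CD26+ NFs held 89.1, 131 and 93.8 CPM, all below the CD26+ CAFs at 151 to 1090.2 CPM around 277 CPM. Igfbp3 rose 4.75-fold in CD26- CAFs (log2 fold change 2.25, SE 0.59, adjusted p 0.00427) and 3.96-fold in CD26+ CAFs (1.99, SE 0.58, adjusted p 0.00978). Between the CAF classes it gave -0.79 (SE 0.36, adjusted p 0.0847). With the mouse as a block this became a call (-0.89, adjusted p 0.00149), with the CD26+ value lower in 9 of 9 mice, and DESeq2 and the fit without WB1P-Myc replicate 13 also called it. In NFs, 2 of 3 mice had the higher value in the CD26+ class.

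Igfbp4, whose product holds IGFs until the protease PAPP-A cleaves it, rose in CD26+ CAFs. Its CD26+ NF levels of 728, 758 and 733 CPM were close together, and CD26+ CAFs ranged from 489 to 2305 CPM around 1402 CPM, with WB1P-Myc replicate 12 alone below the NFs. The log2 fold change was 1.11 (SE 0.33, adjusted p 0.0115), or 2.16-fold, and the adjusted p was 0.0557 without control replicate 3. CD26- NFs held 1115, 996 and 1071 CPM and CD26- CAFs 654 to 1862 CPM around 1253 CPM, with a log2 fold change of 0.35 (SE 0.31, adjusted p 0.390). Every CD26+ NF lay below every CD26- NF, but the test gave -0.45 (SE 0.38, adjusted p 0.739). In CAFs the classes overlapped and 5 of 9 mice had the higher value in the CD26+ class.

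**Figure D3:**
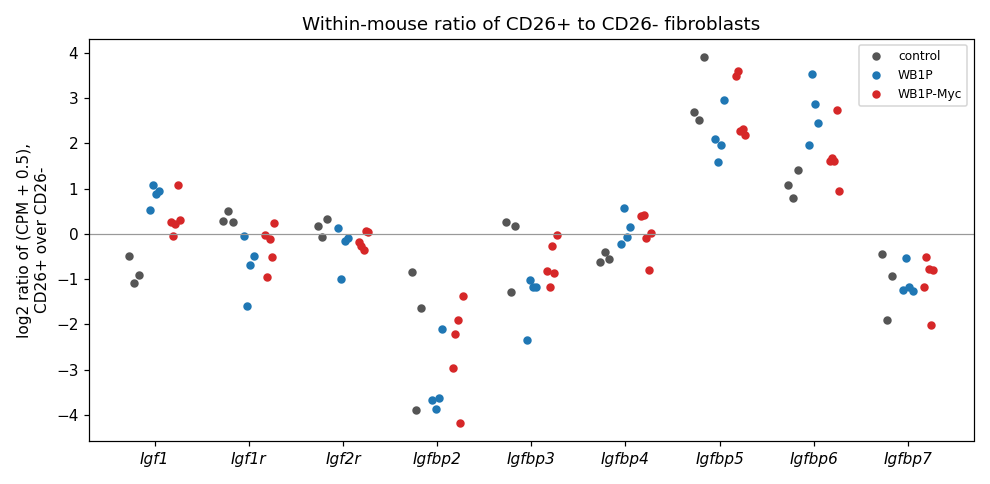
Log2 ratio of CD26+ to CD26- CPM (0.5 added to each) within every mouse that has both classes, for the 9 members tested, with 1 point a mouse and colour for the transplanted tissue. Igf1 lies below 0 in the 3 control mice and above 0 in 8 of 9 tumor mice, and Igfbp2, Igfbp5, Igfbp6 and Igfbp7 keep the sign of their ratio in all 12 mice.

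Levels of different genes were compared per length, as CPM per kilobase of the exons annotated in GENCODE M21. In CD26- NFs the 6 binding proteins together came to 1229 ± 404 CPM per kb (SD, n = 3), and Igfbp7 made up 40.9% ± 3.32, Igfbp6 24.2% ± 5.49 and Igfbp4 21.0% ± 6.73 of the sum. In CD26+ NFs the sum was 1870.2 ± 541 CPM per kb, and Igfbp5 made up 40.7% ± 8.78 and Igfbp6 33.4% ± 3.00. In CD26- CAFs the sum was 1852 ± 217 CPM per kb (n = 10), with 58.7% ± 9.87 from Igfbp7, 16.0% ± 4.93 from Igfbp4 and 12.4% ± 5.35 from Igfbp3, while Igfbp6 was down to 4.43% ± 2.04. In CD26+ CAFs the sum was 1721 ± 415 CPM per kb (n = 9), and no binding protein dominated it. Igfbp7 made up 30.1% ± 4.71, Igfbp6 22.3% ± 6.90, Igfbp5 20.7% ± 6.78 and Igfbp4 18.9% ± 4.14, and the last 3 lay within 1 SD of each other. The ranges of the sums overlapped among the 4 groups, and the mean was lowest in CD26- NFs. CD26- NFs ran from 981 to 1695 CPM per kb and CD26- CAFs from 1599 to 2332 CPM per kb. These sums and shares were described and not tested.

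**Figure D4:**
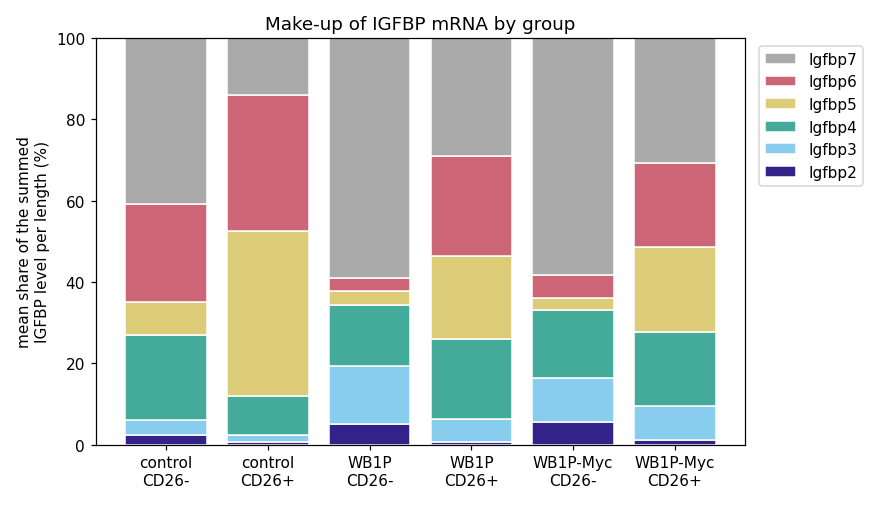
Mean share of each binding protein gene in the summed CPM per kilobase of the 6 genes, by transplanted tissue and CD26 class (3 control mice in each class, 5 and 4 WB1P mice in the CD26- and CD26+ class, 5 WB1P-Myc mice in each). Igfbp7 takes the largest share in CD26- fibroblasts and Igfbp5 in CD26+ fibroblasts of control mice. The SDs over mice are given in the text for NFs and CAFs.

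Igf1 was far below the sum of the 6 binding proteins on the same scale, though above Igfbp2 in the means of all groups but CD26- CAFs. It stood at 42.2 ± 4.68 CPM per kb in CD26- NFs, 24.5 ± 7.69 in CD26+ NFs, 32.1 ± 18.1 in CD26- CAFs and 48.7 ± 14.7 in CD26+ CAFs. The summed binding proteins per Igf1 were 30.2 ± 13.8 in CD26- NFs, 86.6 ± 50.2 in CD26+ NFs, 93.5 ± 92.7 in CD26- CAFs and 37.2 ± 11.3 in CD26+ CAFs, and the ranges of the classes overlapped in NFs and in CAFs. Igf2r stood at 32.6 to 39.8 CPM per kb in the group means, beside Igf1, and Igf1r at 4.15 to 7.73 CPM per kb. The mean of Igfbp2 ran from 9.20 ± 8.68 in CD26+ NFs to 101 ± 61.1 CPM per kb in CD26- CAFs.

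WB1P-Myc and WB1P tumors were compared to ask whether Myc overexpression in the tumor went with another IGF profile in the fibroblasts. No member was called in either class by edgeR or DESeq2. In CD26- CAFs, 2 of 9 members had an unadjusted p under 0.05 and 0.512% of all genes were called, and in CD26+ CAFs 0 of 9 and 0%. The pair with the lowest p were Igfbp6, at 0.79 (SE 0.30, adjusted p 0.219), and Igf1r, at -0.52 (SE 0.22, adjusted p 0.269), both in CD26- CAFs. Igfbp6 was at 35.8, 85.9, 50.9, 73.3 and 62.2 CPM in WB1P replicates 4 to 8 and at 123, 109, 155, 54.5 and 160.0 CPM in WB1P-Myc replicates 9 to 13, and the ranges overlapped. Igf1 in CD26- CAFs ran from 57.1 to 455 CPM in WB1P and from 145.5 to 612 CPM in WB1P-Myc (0.68, SE 0.41, adjusted p 0.445).

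En1 lineage was tested on single libraries, GFP+ against GFP-. No member was called in CAFs or NFs by edgeR or DESeq2, 0 of 9 had an unadjusted p under 0.05 in either, and 0.0193% of all genes were called in each. Igf1 was lower in the GFP+ library of 6 of 7 CD26- and 6 of 6 CD26+ pairs from tumor mice, with a log2 fold change of -0.33 (SE 0.23, adjusted p 1) and, with the mouse as a block, -0.33 (SE 0.08, adjusted p 0.191). Igfbp2 was lower in the GFP+ library of 6 of 6 NF pairs (-0.84, SE 0.62, adjusted p 1). These were 3 pairs in each CD26 class, all from the same 3 control mice. The other members' log2 fold changes lay between -0.15 and 0.19.

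Genes that act on IGFs outside the cell or below the receptor were read from lists. Of 8 tested extracellular modulators, 2 were higher and 3 lower in CD26- CAFs than in NFs, and 3 higher and 0 lower in CD26+ CAFs. The share of all genes called was 41.3% in the first comparison (20.4% up, 21.0% down) and 41.2% in the second (20.1% up, 21.1% down), and 5 and 3 of 8 stood on either side of it. Pappa, the protease that cleaves Igfbp4, rose 4.44-fold in CD26- CAFs (log2 fold change 2.15, SE 0.47, adjusted p 0.000995). This fold averages unlike tumors, since Pappa was at 13.1 ± 4.48 CPM in CD26- NFs, 99.3 ± 44.7 in WB1P and 31.1 ± 11.1 in WB1P-Myc CD26- CAFs. It was the 1 extracellular modulator called between the tumor types, lower in WB1P-Myc (log2 fold change -1.81, SE 0.40, adjusted p 0.0456, where 0.512% of all genes were called), and 6 of 18 alternatives kept the call (adjusted p 0.00139 to 0.162). In CD26+ CAFs Pappa rose 7.00-fold (2.81, SE 0.50, adjusted p 0.000211), or 11.3-fold without control replicate 1. Stc1, a stanniocalcin and inhibitor of that protease, rose 5.58-fold in CD26- CAFs (2.48, SE 0.50, adjusted p 0.000476). In CD26+ CAFs Stc1 gave 1.64 (SE 0.48, adjusted p 0.0102), lost without control replicate 2 or 3 and 2.29 without control replicate 1. Both were lower in CD26+ than in CD26- CAFs. Their log2 fold changes were -1.14 for Pappa (adjusted p 0.00338) and -1.71 for Stc1 (adjusted p 0.000128). Of the 8 tested modulators, 2 were lower between these classes and 2 higher, Lrp1 (log2 fold change 0.52) and Tmem219 (0.38). The share of all genes called there was 39.0% (19.1% up, 19.9% down). Htra1, a secreted protease that can cleave binding proteins, fell by 0.98 on the log2 scale in CD26- CAFs (SE 0.25, adjusted p 0.00301). Igfals, which encodes the third subunit of the circulating IGF complex, fell by 1.43 there (SE 0.46, adjusted p 0.0173), a call lost without control replicate 2. Pappa, Stc1 and the pericyte marker sum were each higher in all 10 CD26- CAF sums than in any CD26- NF sum. Among the CD26- CAF sums, that of WB1P-Myc replicate 9 had the highest marker sum (10973 CPM), the highest Stc1 (131 CPM) and the lowest Pappa (23.2 CPM). The part of these markers was not tested.

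Of 19 receptor and signalling genes, 2 were higher and 7 lower in CD26- CAFs than in NFs, and 3 higher and 7 lower in CD26+ CAFs. With 41.3% and 41.2% of all genes called in either direction, 9 and 10 of 19 stood near the background. The median log2 fold changes were -0.28 and -0.34, against 0.0137 and -0.00247 for all genes tested. Irs1 and Irs2, the adaptors that carry the signal of the insulin and IGF receptors, were lower in both classes, by 0.92 (adjusted p 0.000695) and 1.38 (adjusted p 3.40e-05) in CD26- CAFs and by 1.10 (adjusted p 0.000201) and 1.35 (adjusted p 8.66e-05) in CD26+ CAFs on the log2 scale. Foxo1, a transcription factor that this pathway holds out of the nucleus, was 2.29-fold lower in CD26- CAFs (adjusted p 5.20e-06) and 2.79-fold lower in CD26+ CAFs (adjusted p 9.45e-07). Grb14, an adaptor that dampens these receptors, was 4.18-fold higher in CD26- CAFs (adjusted p 0.00314) and 3.32-fold higher in CD26+ CAFs (adjusted p 0.0136), the second lost without control replicate 3. Between the CAF classes 2 of 19 were higher and 8 lower in CD26+ CAFs, where 19.1% of all genes were higher and 19.9% lower. Grb10, a related adaptor, was 3.00-fold higher (log2 fold change 1.58, SE 0.15, adjusted p 2.78e-08), Grb14 was 2.81-fold lower (adjusted p 0.00104), and Pik3r1, which encodes a regulatory subunit of PI3 kinase, was 2.22-fold lower (adjusted p 6.61e-06).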

How the data were processed

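RNA of sorted fibroblast populations was sequenced as poly(A)-selected, stranded mRNA libraries, and the authors deposited whole-number read counts per gene. The submitters' processing notes name HISAT2 2.2.1 and GRCm38. The counting tool, its strand setting and the annotation are not given in the sources used here, and 1 line of the table that names no gene held 0 counts. Library totals were 5790599 to 15240328 counts, with a median of 12818093. No batch was given in the labels.

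Counts of a mouse were summed within each CD26 class. edgeR 4.0.16 (R 4.3.3) was run with filterByExpr, TMM and the quasi-likelihood test on 6 groups, with WB1P and WB1P-Myc weighing the same in the CAF mean. En1 lineage was tested on 12 groups of single libraries. A gene was called at a Benjamini-Hochberg adjusted p under 0.05 over all genes tested. Sums of the same mouse deviated together (r of 0.261 to 0.734 in 12 pairs, median 0.497), and the pairing comes from the mouse numbers in the labels. The blocked fit is given where it changed a call. Alternatives were DESeq2 1.42.0, its size factors, no filter, only the groups compared or the block, no mice marked 8x8, and each mouse left out. The scripts were tested on simulated counts. None of the 63 pairs of libraries of the same condition and sorted population was a copy, and other pairs were not checked.

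All 10 members were named, and from the other lists called genes with the largest absolute log2 fold changes, at most 4 a list and comparison. Not every comparison of a named gene is given. A gene that this rule names, and the genotype of the control donors, are not reported here. The members and lists were chosen with earlier results of these data known. Pattern likeness was the mean absolute difference of centred log2(CPM + 0.5) over 25 sums. Promoters came from the RefSeq table, in which all 10 members were matched. In comparisons within a CD26 class each mouse gave 1 sum, so the p-values measure the spread between mice. That spread was estimated from all 25 sums, however, with both sums of a mouse taken as independent. Among members, the fit of only the groups compared also called Igf1 and Igfbp6 in CD26+ CAFs against NFs. In unblocked comparisons between CD26 classes, and in the difference of changes, both sums of a mouse entered as if independent. Libraries of the same mouse did so in the unblocked tests of En1 lineage. Blocked p-values measure the spread within mice. Igf1, Igf2, Igf2r and Igfbp7 overlap genes on the opposite strand, so their counts are uncertain if strand was not used. Comparisons of CAFs with NFs share the same 3 control mice.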

Additional observations from a re-analysis of the deposited data

Results flagged for a closer look

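5 values lay far from the rest of their group by Dixon's test, out of 40 groups of 4 or 5 mice, where chance gives about 2. Igf2 in WB1P-Myc CD26- CAFs was highest in replicate 11, at 0.643 CPM against 0.0985 CPM in the next. Igfbp3 in WB1P CD26- CAFs was highest in replicate 5, at 1367 CPM against 702 CPM. Igfbp2 in WB1P CD26+ CAFs was lowest in the same mouse, replicate 5, at 5.24 CPM against 18.7 CPM. In WB1P CD26+ CAFs replicate 6 was highest for Igfbp3, at 344 CPM against 277 CPM, and for Igfbp7, at 959 CPM against 509 CPM. The CD26+ sum of replicate 6 is the shallowest of all, at 5790599 counts from 1 library.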

How the results depend on the processing

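Of 1458 gene results under alternative settings, 1377 kept their direction and side of the threshold, 15 passed it, 12 no longer passed it and 54 changed sign. None of the 14 called results changed sign. The count of members called for CD26+ against CD26- NFs was 1, and became 2 with DESeq2, 4 with the mouse as a replicate block, and 0 to 1 when a mouse was left out. For the difference of NF-to-CAF changes it was 0, and became 1 with the block. The block changed no other call of members than those given beside the results. Among the other lists it moved the calls between CAF classes from 10 to 13 of 19 signalling genes. The lists of modulators, growth hormone input and imprinted genes also gained calls there. Over all genes the share called between CAF classes rose with the block from 39.0% to 49.4%.

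All sign changes were in results not called. Without the mice marked 8x8, WB1P-Myc against WB1P gave -0.29 for Igfbp2 in CD26- and 0.11 for Igfbp4 in CD26+ CAFs, and En1 lineage in CAFs gave 0.50 for Igfbp2. Without the low-count filter, Igf1r gave 0.0168 in CD26- CAFs against NFs. The block gave 0.0207 for Igfbp6 by lineage in CAFs. Igfbp3 by lineage in NFs gave -0.00127 with DESeq2 size factors, -0.00108 with DESeq2 and -0.00217 without the filter. The cause was not tested.

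With a mouse left out, the ranges that crossed 0 were as follows. In CD26- CAFs against NFs, Igf1r ran from -0.10 to 0.10 and Igfbp5 from -1.14 to 0.0465. Between CD26 classes, Igf2r ran from -0.12 to 0.0907 in CAFs and Igfbp3 from -0.80 to 0.30 in NFs, and the difference of changes ran from -0.68 to 0.14 for Igfbp5 and from -0.36 to 0.43 for Igfbp7. In WB1P-Myc against WB1P CD26+ CAFs, Igf1 ran from -0.21 to 0.30, Igf1r from -0.41 to 0.00645, Igf2r from -0.24 to 0.085, Igfbp4 from -0.24 to 0.15, Igfbp5 from -0.0776 to 0.43 and Igfbp7 from -0.081 to 0.35. In CD26- CAFs, Igfbp2 ran from -0.36 to 0.40, Igfbp4 from -0.0903 to 0.26, Igfbp5 from -0.61 to 0.0838 and Igfbp7 from -0.22 to 0.0303. By lineage, Igfbp2 ran from -0.20 to 0.15 and Igfbp6 from -0.15 to 0.0635 in CAFs, and Igf1 from -0.066 to 0.0642, Igfbp3 from -0.0316 to 0.0336 and Igfbp6 from -0.22 to 0.00778 in NFs. Scaling by TMM moved 2 of 60 group levels by more than 1 SD. With 3 control mice, each NF value weighs heavily, and Igf2 was too low to test.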

Other observations

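Of 6 genes of growth hormone input, 0 were higher and 1 lower in CAFs than in NFs of either class, below the 41.3% (CD26-) and 41.2% (CD26+) of all genes called in these comparisons. Stat5b, a transcription factor that carries the growth hormone signal, was 2.60-fold lower in CD26- CAFs (log2 fold change -1.38, SE 0.15, adjusted p 6.20e-07 in edgeR). In CD26+ CAFs it gave -0.64 (SE 0.16, adjusted p 0.00362), a call lost without control replicate 2. The difference between these changes was not called for Stat5b in edgeR without the mouse. Of 18 alternatives only the block called it (adjusted p 0.0152, others up to 0.489), a fit that called 6.08% of all genes. A class difference in the change was therefore not established. Among CAFs, Stat5b was 1.75-fold higher in the CD26+ class, and Ghr, the growth hormone receptor, and Socs2, a feedback inhibitor of it, were lower by 0.75 and 1.11 on the log2 scale (adjusted p 0.000271 and 0.00610).

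Of 8 tested imprinted growth genes and Igf2 mRNA-binding proteins, 3 were higher and 2 lower in CD26- CAFs than in NFs, and 1 higher and 2 lower in CD26+ CAFs, beside the same 41.3% and 41.2% of all genes called. Cdkn1c, an imprinted inhibitor of the cell cycle, was 18.6-fold lower in CD26- CAFs (log2 fold change -4.22, SE 0.32, adjusted p 4.64e-09) and 3.85-fold lower in CD26+ CAFs (-1.95, SE 0.34, adjusted p 0.000149). The difference between these changes was 2.27 (SE 0.52, adjusted p 0.0206), lost without control replicate 3. Dlk1, an imprinted membrane protein of the Notch ligand family, rose by 5.09 on the log2 scale in CD26- CAFs (SE 1.22, adjusted p 0.00213) and by 4.53 in CD26+ CAFs (SE 1.23, adjusted p 0.00601), the latter 3.52 without WB1P-Myc replicate 9. H19, the imprinted RNA beside Igf2, rose by 2.82 in CD26- CAFs (SE 0.83, adjusted p 0.00957). It was at 23.9 to 33.1 CPM in CD26- NFs, at 21.6 to 273 CPM in 9 CD26- CAF sums and at 1071 CPM in WB1P-Myc replicate 13, without which the log2 fold change was 1.84 (SE 0.44, adjusted p 0.00283). The last of the 3 higher genes was Igf2bp3, which had 0 counts in every CD26- NF sum and a median of only 0.0764 CPM in CD26- CAFs. Its call (adjusted p 0.0316) held in 11 of 17 alternatives and was lost without the mice marked 8x8, without each of the 3 control mice, and without WB1P replicate 5 or WB1P-Myc replicate 13 (adjusted p up to 0.111). Peg3, another imprinted gene, was 3.63-fold lower in CD26- CAFs (adjusted p 1.85e-06) and 5.88-fold lower in CD26+ CAFs (adjusted p 1.06e-07).

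The genes nearest to each member in pattern over the 25 sums were found by the mean absolute difference of centred log2 levels. Nearest to Igf1 was Mmp3, a stromal protease, at 0.301, with means of 657 CPM (CD26-) and 419 CPM (CD26+) in NFs and of 624.5 CPM (CD26-) and 761 CPM (CD26+) in CAFs. Igfbp6 lay nearest to Gstm1 (0.356), Igfbp7 to Slc44a2 (0.278) and then Tgfb3 (0.281), Igfbp5 to Igsf1 (0.484) and Igfbp2 to Unc5b (0.640). Igfbp3 lay nearest to Pthlh (0.512), Igfbp4 to Sh3rf3 (0.272), Igf1r to Bmpr2 (0.152) and Igf2r to Rbms3 (0.134). A member that varies little lies near many genes, so these distances do not rank the members. The mean absolute deviation of the member itself was 0.190 for Igf2r, 0.363 for Igf1r, 1.44 for Igfbp2 and 1.46 for Igfbp5.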
